A study of Mus musculus with 44 samples.

Results

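Early-life exercise (ELE) was compared with sedentary rearing in 8 libraries of translating mRNA made by simultaneous isolation (SIT), 4 from ELE and 4 from sedentary mice. They are all the SIT libraries among 20 TRAP-seq libraries and 44 samples of the series, and none was left out. In TRAP, tagged ribosomes are pulled down with the mRNA they carry. In SIT, the same homogenate of both hippocampi of 1 mouse also gives nuclei for chromatin profiling. The mice were Emx1-NuTRAP, a cross of Emx1-Cre females with NuTRAP reporter males, so that cells with a history of *Emx1* expression carry the ribosomal tag and a tagged nuclear envelope. Wheels stood in the cages of the ELE mice over postnatal days 21 to 41, the sedentary mice had none, and tissue was taken the day after. All were male, carried both alleles and were housed 2 per cage, and each library is 1 mouse, so p-values measure the spread between these mice. Emx1-Cre marks mainly excitatory neurons of the forebrain, but also neural progenitors and some astrocytes, so the captured RNA is enriched for neurons and is not pure. The ELE libraries came from mice NT6.303, NT6.304, TG7.4.1 and TG7.4.2 and the sedentary ones from mice NT6.305, NT6.306, NT7.2.3 and NT7.2.4. Values are given in this order.

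When a neuron fires, calcium entry and cyclic AMP activate kinases that switch on immediate early genes within minutes. These encode transcription factors such as Fos, Egr and Nr4a proteins, which then act on slower effector genes for synaptic scaffolds, neurotrophins and secreted peptides. Running is a known stimulus of such genes and of *Bdnf*, a neurotrophin needed for hippocampal memory. Mitochondria carry a small genome whose mRNAs are translated on their own ribosomes, outside the reach of a tag on cytosolic ribosomes.

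Counts per library were between 50410258 and 60179728. Before any comparison of the groups, 3 libraries stood apart. Genes of the mitochondrial genome took 8.64% of the counts in NT7.2.3 (95% Wilson interval 8.63% to 8.64%) and 9.64% in NT7.2.4 (9.63% to 9.65%). They took between 0.195% and 0.523% in the other 6 SIT libraries and between 0.0704% and 0.122% in the 12 libraries of the separate isolation, in which RNA was taken from 1 hippocampus by itself. Such intervals cover counting error only. On the first principal component, with 42.6% of the variance, the NT7.2 pair lay at 59.5 and 60.4 and the other libraries between -23.1 and -16.4. On the second, with 23.1%, NT6.304 lay at 63.6 and the other libraries between -19.8 and 10.0. The study's own comparison of these groups left out NT6.304 and the NT7.2 pair. Every TG7.4 mouse exercised and every NT7.2 mouse was sedentary, so for these 4 mice exercise and mouse number cannot be told apart. Only the NT6 mice occurred in both groups. Gene lists are therefore given with all 8 libraries and without the NT7.2 pair (4 ELE against 2 sedentary), some of them also within the 4 NT6 mice, and the genes described have their values in each library.

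The label of excitatory neurons was checked against 18 of their markers. Their summed level, in CPM (read counts scaled to a common library size after TMM), was 14924, 14654, 15265 and 16758 CPM in the ELE libraries and 14974, 15006, 13226 and 13193 CPM in the sedentary libraries, and every marker had counts in every library. The lowest sums were those of the NT7.2 pair. *Emx1* itself measured 16.6, 32.8, 22.4 and 20.7 CPM in the ELE libraries and 18.7, 20, 15.7 and 13.6 CPM in the sedentary libraries, and it did not pass the threshold used here (0.44 ± 0.22 (SE), exact permutation p = 0.143).

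A gene was counted as changed at an unadjusted p under 0.05 in edgeR's quasi-likelihood test and at least a 1.3-fold difference, the threshold form that the study's methods use. In the fit of all 8 libraries, ELE was higher in 419 of 17531 genes (2.39%) and lower in 956 (5.45%). No gene had a Benjamini-Hochberg adjusted p under 0.05 with edgeR, whose lowest value was 0.403, while 1590 genes had an unadjusted p under 0.05 and DESeq2 gave 243 genes an adjusted p under 0.05. Single genes are therefore described with their spread and not as established changes. The CPM of the groups did not overlap for 809 genes (4.61%). Leaving out the NT7.2 pair, 236 of 18556 were higher (1.27%) and 287 lower (1.55%). Within the NT6 mice, 650 of 17738 were higher (3.66%) and 546 lower (3.08%). Without NT6.304 alone, 293 of 18175 were higher (1.61%) and 988 lower (5.44%). The TG7.4 mice against the NT7.2 mice gave 2191 higher (11.9%) and 2772 lower (15.1%) of 18401 genes. Of the changed genes with all 8 libraries, 62 higher and 145 lower genes also passed in the same direction without the NT7.2 pair, and 126 and 138 did within the NT6 mice. In all 3 fits, 37 genes were higher and 81 lower. In bulk libraries, fewer cells of a type and less RNA per cell cannot be told apart.

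**Figure D1:**
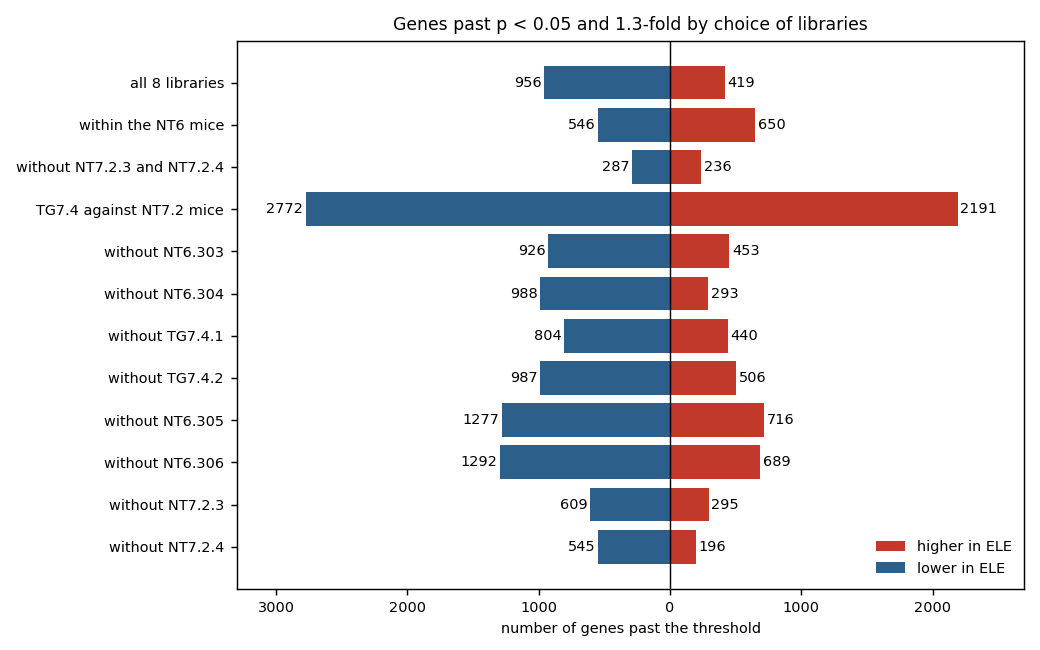
Number of genes past the threshold (x axis; bars to the right are genes higher and bars to the left genes lower in ELE) for each choice of libraries (y axis). The counts were highest in the TG7.4 mice against the NT7.2 mice, with 2191 and 2772 genes, and lowest for higher genes without NT7.2.4, with 196, and for lower genes without the NT7.2 pair, with 287.

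Immediate early transcription factors were the list with the most positive median. Of 24 tested, 12 were higher in ELE, none lower, and 12 did not pass, with a median log2 fold change of 1.06 against 0.00 over all genes tested. NT6.304 carried most of this. The summed level of the list was 1758, 4990, 1376 and 1288 CPM in the ELE libraries and 1307, 1331, 1051 and 1140 CPM in the sedentary libraries. NT6.304 lay far above the rest, and NT6.303 was next. *Fos*, which pairs with Jun proteins to form AP-1, measured 19, 613, 11.4 and 12.1 CPM in the ELE libraries and 12.9, 11.4, 13.9 and 6.49 CPM in the sedentary libraries. Its groups overlapped, and its fold change of 3.88 ± 1.25 (SE) on the log2 scale rested on NT6.304. *Junb* measured 99.3, 668, 74.9 and 75.5 CPM in the ELE libraries and 60.6, 65.7, 53.1 and 51.3 CPM in the sedentary libraries and *Atf3*, a stress and activity-induced factor, 1.08, 21.4, 1.15 and 1.41 CPM in the ELE libraries and 0.969, 0.897, 0.981 and 0.448 CPM in the sedentary libraries. In both, the groups did not overlap, and the other 3 ELE libraries lay much closer to the sedentary ones than to NT6.304. Without NT6.304, 4 of the 24 factors were higher, with a median of 0.25, and *Fos* did not pass (log2 fold change 0.34), while *Junb* did (0.53). Without the NT7.2 pair, 1 of 25 was higher, namely *Nr4a1*, although the median was 0.98. Within the NT6 mice, 18 of 25 were higher. In the TG7.4 mice against the NT7.2 mice, 6 of 24 were higher and 3 lower, with a median of 0.15.

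*Nr4a1*, an orphan nuclear receptor of this list (ENSMUSG00000023034.7, chromosome 15, 101254269 to 101274795, plus strand in GRCm38), was higher in every ELE library than in every sedentary one, with 86.9, 192, 63.1 and 53.8 CPM in the ELE libraries and 38, 42.8, 34.6 and 38.6 CPM in the sedentary libraries. Its mean was 99.0 ± 63.8 CPM in ELE and 38.5 ± 3.39 CPM in sedentary mice (SD, n = 4). The log2 fold change was 1.36 ± 0.35 (SE) with all 8 libraries, 1.29 without the NT7.2 pair, 1.78 within the NT6 mice, 0.82 without NT6.304 and 0.68 in the TG7.4 mice against the NT7.2 mice, past the threshold each time. Its exact two-sided permutation p of 0.0286 is the smallest that 4 against 4 libraries allow. Its relatives *Nr4a2* and *Nr4a3*, chosen after their values were seen, did not follow it. *Nr4a3* measured 176, 55.3, 139 and 111 CPM in the ELE libraries and 115, 119, 102 and 112 CPM in the sedentary libraries, lowest in NT6.304, and *Nr4a2* was likewise lowest there, at 33.4 CPM against 59.1 to 94.6 CPM elsewhere.

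Among the 39 effectors of neuronal activity, 15 were higher in ELE, 1 was lower and 23 did not pass, with a median of 0.65. The summed level was 2938, 8781, 2477 and 2621 CPM in the ELE libraries and 2317, 2413, 2282 and 2244 CPM in the sedentary libraries, again with NT6.304 above all others. *Bdnf* (ENSMUSG00000048482.14, chromosome 2, 109674700 to 109727007, plus strand) measured 108, 237, 88.9 and 90.9 CPM in the ELE libraries and 63.5, 77, 63.6 and 56.1 CPM in the sedentary libraries. The groups did not overlap, and the log2 fold change of 1.01 ± 0.29 (SE) stayed past the threshold without the NT7.2 pair (0.89), within the NT6 mice (1.28) and without NT6.304 (0.56). *Dusp5*, a phosphatase that switches off ERK kinases, measured 46.3, 77.7, 41.7 and 42 CPM in the ELE libraries and 27, 36, 31.5 and 27.1 CPM in the sedentary libraries. *Errfi1*, an inhibitor of the EGF receptor, measured 67.7, 74, 55.5 and 56.9 CPM in the ELE libraries and 43.9, 46.2, 39.1 and 41.1 CPM in the sedentary libraries. For both, all 4 ELE libraries exceeded all 4 sedentary ones, with log2 fold changes of 0.77 ± 0.21 (SE) and 0.58 ± 0.13 (SE), and *Errfi1* varied little among the ELE libraries. *Arc*, a synaptic capsid-like protein named here after its values were seen, measured 157, 1120, 61.6 and 85.2 CPM in the ELE libraries and 47.7, 70.7, 57.8 and 76 CPM in the sedentary libraries, so that TG7.4.1 lay below 2 sedentary libraries. Without NT6.304, 5 of the 39 effectors were higher and 1 lower, with a median of 0.14. Without the NT7.2 pair, 4 were higher, with a median of 0.72. The effector that was lower was *Tac1*, the substance P precursor, at 0.387, 0.524, 0.436 and 0.437 CPM in the ELE libraries and 0.665, 0.630, 5.64 and 8.44 CPM in the sedentary libraries. It was high in the NT7.2 pair, and in the other 6 libraries it lay between 0.387 and 0.665 CPM.

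The promoters of these genes were read to show the sequence through which cyclic AMP and calcium are known to act. RefSeq windows of 300 bases (GRCm38.p6, 250 before to 50 after the start of transcription) existed for 47 of the 64 genes of both activity lists. The full cyclic AMP response element, TGACGTCA on either strand, occurred in 8 of the 47 (17.0%), against 2.03% of 27025 genes with a window and 3.36% of the genes tested here. The full element was in 7 of 28 effectors (25.0%) and in 1 of 19 immediate early factors (5.26%), so most of the count came from the effectors. The shorter TGACG, on either strand, which every full element contains, occurred in 30 of the 47 (63.8%), against 23.0% of all genes and 33.3% of the genes tested. The CArG box of serum response factor occurred in 2 of the 47 (4.26%), against 1.81% of all genes and 1.66% of the genes tested. Over all genes higher in ELE with a window, 14 of 318 (4.40%) had the full element, and 16 of 653 lower genes (2.45%) did. The shorter TGACG was in 41.2% of those higher and 26.6% of those lower genes, and the CArG box in 4.40% and 1.53%. These are counts of letters in a window and not of bound sites. Of the 8 genes with a full element, *Errfi1*, *Scg2*, *Plk2* and *Arl4d* were higher in ELE, while in the whole lists 12 of 24 factors and 15 of 39 effectors were. Stretches that hold the element in these 4 and the CArG box in *Dusp5* and *Egr2* are shown 5′ to 3′ with the element in capitals. They lie at chr4:150854973-150855069, plus strand for Errfi1, chr1:79440041-79440140, minus strand for Scg2, chr13:110394936-110395035, plus strand for Plk2, chr11:101665469-101665540, plus strand for Arl4d, chr19:53529017-53529128, plus strand for Dusp5 and chr10:67537751-67537852, plus strand for Egr2.
Errfi1: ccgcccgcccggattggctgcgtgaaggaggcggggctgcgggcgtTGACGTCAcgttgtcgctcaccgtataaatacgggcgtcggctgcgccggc
Scg2: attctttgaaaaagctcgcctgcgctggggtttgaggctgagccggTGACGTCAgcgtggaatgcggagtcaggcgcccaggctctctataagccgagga
Plk2: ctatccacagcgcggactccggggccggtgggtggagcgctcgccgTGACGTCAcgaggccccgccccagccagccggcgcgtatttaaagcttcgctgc
Arl4d: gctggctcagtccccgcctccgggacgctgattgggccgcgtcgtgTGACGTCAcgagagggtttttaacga
Dusp5: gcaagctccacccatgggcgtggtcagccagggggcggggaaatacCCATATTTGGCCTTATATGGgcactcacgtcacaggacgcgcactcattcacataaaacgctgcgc
Egr2: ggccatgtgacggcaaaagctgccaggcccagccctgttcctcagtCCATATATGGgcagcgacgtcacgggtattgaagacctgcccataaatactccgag

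The element began 51 bases before the start in *Errfi1*, 68 in *Scg2*, 62 in *Plk2* and 26 in *Arl4d*, and the abutting CArG boxes of *Dusp5* began 82 and 72 bases before it. The genes that share the element did not share a profile. *Errfi1* was higher in all 4 ELE mice. *Arl4d*, a small GTPase, measured 10.1, 108, 9.07 and 9.8 CPM in the ELE libraries and 5.39, 8.76, 9.58 and 8.22 CPM in the sedentary libraries, so that NT6.304 alone stood out. *Scg2*, a secretory granule protein, measured 209, 604, 169 and 181 CPM in the ELE libraries and 171, 164, 151 and 178 CPM in the sedentary libraries. *Plk2*, a kinase of synaptic scaling, measured 224, 484, 208 and 186 CPM in the ELE libraries and 180, 201, 176 and 146 CPM in the sedentary libraries. In *Scg2* and *Plk2* the groups overlapped and NT6.304 was highest. *Egr2*, a zinc finger factor with CArG boxes, measured 7.68, 48.9, 1.94 and 0.968 CPM in the ELE libraries and 2.45, 2.23, 0.717 and 1.63 CPM in the sedentary libraries, with NT6.304 and then NT6.303 highest and TG7.4.2 below 3 sedentary libraries. The last 4 genes were named for their promoters, after their values were seen.

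**Figure D2:**
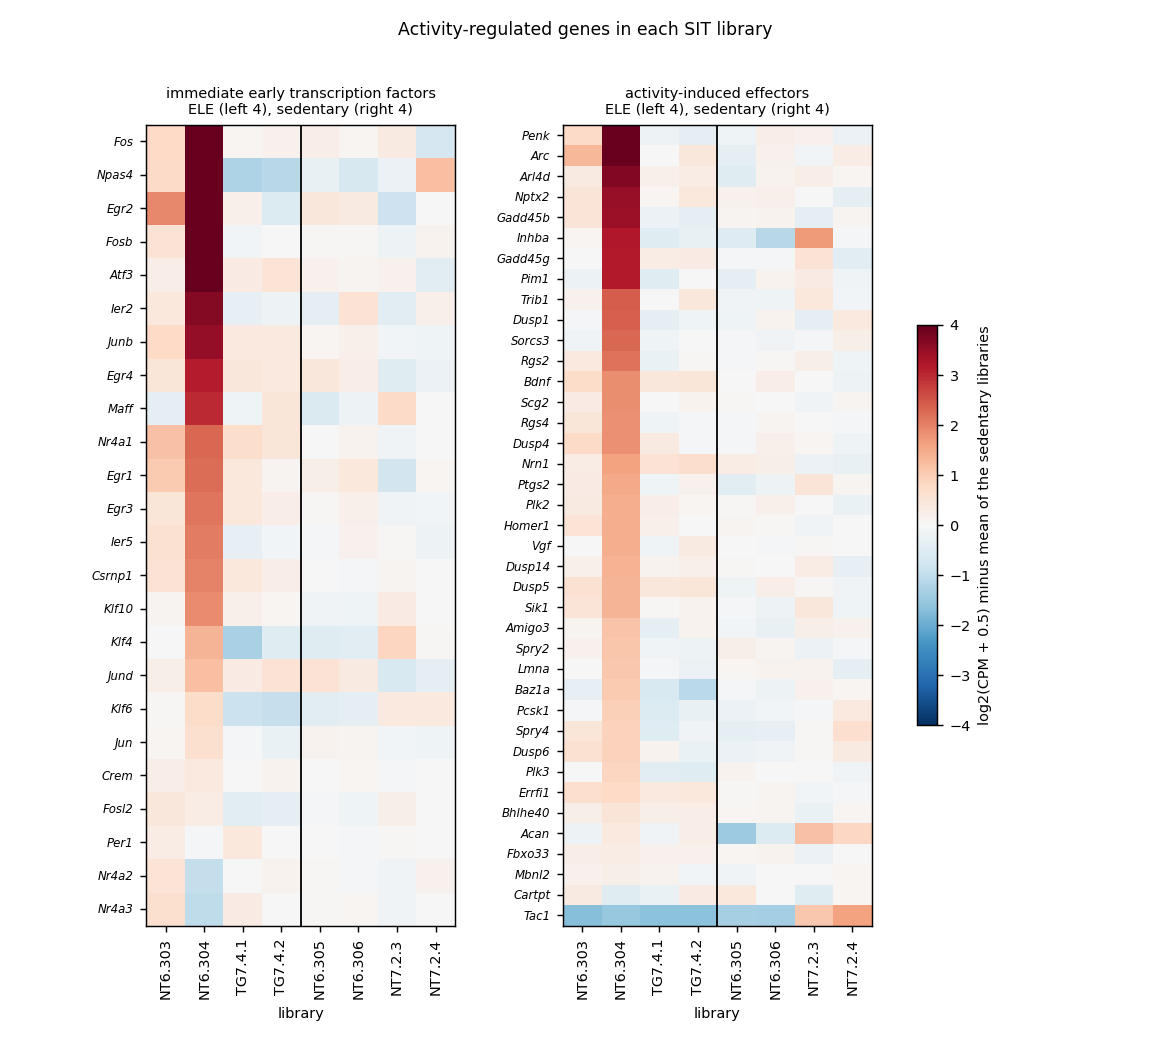
Heat map of the 24 immediate early transcription factors and the 39 activity-induced effectors tested (rows, ordered by their level in NT6.304) in the 8 libraries (columns). Colour gives log2(CPM + 0.5) minus the mean of the 4 sedentary libraries, and values beyond 4 are drawn at the end of the scale. The column of NT6.304 is high for most genes, with *Nr4a2* and *Nr4a3* as exceptions, while *Nr4a1*, *Bdnf*, *Dusp5* and *Errfi1* are higher in all 4 ELE libraries.

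Some chaperones and peptides were also high in NT6.304. Of 39 heat shock proteins and chaperones, 3 were higher, with a median of 0.10, among them the co-chaperone *Bag3* at 12.1, 54.2, 8.96 and 11.2 CPM in the ELE libraries and 7.69, 7.56, 10.1 and 8.22 CPM in the sedentary libraries. *Penk*, an effector that encodes enkephalin, measured 46.7, 681, 23.4 and 21.1 CPM in the ELE libraries and 23.8, 32.5, 30.6 and 23 CPM in the sedentary libraries, so that 1 library set its log2 fold change of 2.81 ± 1.01 (SE). Of the chaperones, none of 39 passed (median 0.01) without the NT7.2 pair. Of 23 neurotrophins and receptors, 2 were higher and 4 lower (median 0.02), and without the NT7.2 pair 1 of 24 was higher and 1 lower (median 0.30). The lower ones included the growth factors *Igf1* and *Igf2*. *Igf2* measured 0.219, 0.583, 0.545 and 1.01 CPM in the ELE libraries and 3.51, 1.01, 7.74 and 14.4 CPM in the sedentary libraries and *Igf1* 0.185, 0.466, 0.109 and 0.968 CPM in the ELE libraries and 1.01, 0.515, 10.2 and 11.5 CPM in the sedentary libraries. For *Igf2*, which cells of vessels, meninges and choroid plexus express strongly, the highest ELE and the lowest sedentary library were both at 1.01 CPM. It was lower without the NT7.2 pair too (log2 fold change -1.94), whereas *Igf1* did not pass there (-0.82).

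All 13 protein-coding genes of the mitochondrial genome were lower in ELE with all 8 libraries, with a median log2 fold change of -3.73. The whole difference lay in the NT7.2 pair. The summed level was 2309, 1831, 3368 and 4830 CPM in the ELE libraries and 3849, 2184, 83477 and 94185 CPM in the sedentary libraries. *mt-Co1*, a core subunit of cytochrome c oxidase, measured 418, 354, 508 and 998 CPM in the ELE libraries and 671, 422, 24905 and 28567 CPM in the sedentary libraries. *mt-Cytb*, of complex III, measured 352, 265, 553 and 674 CPM in the ELE libraries and 598, 331, 11019 and 12491 CPM in the sedentary libraries. For none of the 13 did the groups separate, and for *mt-Co1* the exact permutation p was 0.200. In the fit that left out the NT7.2 pair, none of the 13 passed and the median was 0.01. Within the NT6 mice, 3 of 13 were lower (median -0.56), with the sum of NT6.305 above both ELE mice and that of NT6.306 between them.

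Respiratory chain subunits encoded in the nucleus went the other way in the NT7.2 pair. Their summed level over 79 genes, of which 78 were tested, was 10008, 10390, 10148 and 11096 CPM in the ELE libraries and 11094, 10552, 7951 and 8350 CPM in the sedentary libraries, with the lowest values in NT7.2.3 and NT7.2.4. With all 8 libraries none passed the threshold and the median was 0.16. In the TG7.4 mice against the NT7.2 mice, 46 of 78 were higher and none lower, with a median of 0.41. Neither without the NT7.2 pair nor within the NT6 mice did any pass, with medians of -0.07 and -0.12. The ATP synthase subunits *Atp5b* and *Atp5a1* had log2 fold changes of 0.06 ± 0.10 (SE) and 0.09 ± 0.12 (SE) with all 8. Mitochondrial ribosomal proteins followed the same course. With all 8 libraries, 3 of 78 were higher and 1 lower (median 0.22), against 46 higher and 1 lower between TG7.4 and NT7.2 mice, and none without the NT7.2 pair (median 0.01). None of 25 genes of glycolysis and lactate passed (median 0.01), and none did without the pair (median -0.05). *Gapdh* measured 1322, 1348, 1287 and 1275 CPM in the ELE libraries and 1429, 1426, 1226 and 1166 CPM in the sedentary libraries.

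Markers of cells outside the Emx1 lineage were lower in ELE in the same manner. Of 17 microglial and macrophage markers tested, 16 were lower, with a median of -3.99. The summed level of all 20 on the list was 15.4, 26.5, 12.4 and 20.5 CPM in the ELE libraries and 17.1, 16.7, 367 and 379 CPM in the sedentary libraries, and the separate isolation had 13.2 to 20.9 CPM over its 12 libraries, without TMM scaling. The complement gene *C1qb* measured 0.337, 0.757, 0.436 and 1.08 CPM in the ELE libraries and 1.22, 1.13, 33.3 and 33.8 CPM in the sedentary libraries, and the fractalkine receptor *Cx3cr1* 0.118, 0.835, 0.582 and 1.01 CPM in the ELE libraries and 0.760, 1.58, 38.8 and 46.3 CPM in the sedentary libraries. Both were far higher in the NT7.2 pair than in the other 6 libraries. The perivascular macrophage markers *Mrc1* and *Pf4*, too low to test with all 8 libraries, were at 0 in 5 and in all 6 of those libraries. In the TG7.4 mice against the NT7.2 mice *Mrc1* was tested, through its NT7.2 counts alone, and was lower. In NT7.2.3 and NT7.2.4, *Mrc1* was at 2.41 and 3.44 CPM, while *Pf4* was at 0.208 CPM in the first and at 0 in the second. Without the pair none of 17 passed, with a median of 0.16.

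Inhibitory interneuron markers followed. Of 19, 17 were lower, 2 did not pass and the median was -2.84. The summed level was 749, 1585, 704 and 905 CPM in the ELE libraries and 897, 867, 2151 and 2278 CPM in the sedentary libraries. It was high in the NT7.2 pair and in NT6.304. *Sst*, the somatostatin peptide, measured 5.81, 7.19, 3.93 and 10.1 CPM in the ELE libraries and 7.1, 8.76, 220 and 273 CPM in the sedentary libraries. *Pvalb*, the calcium buffer of fast-spiking cells, measured 0.505, 1.4, 0.982 and 0.778 CPM in the ELE libraries and 1.65, 1.76, 21.2 and 32.8 CPM in the sedentary libraries. None of the 19 markers was at 0 in any library. Without the NT7.2 pair, 3 of 19 were lower, with a median of -0.23, and within the NT6 mice 2 were lower and 1 higher (-0.30). *Dlx2*, a homeobox factor of forebrain GABAergic cells, did not overlap and was lower without the pair and within the NT6 mice too. It measured 0.489, 0.524, 0.491 and 0.703 CPM in the ELE libraries and 2.3, 1.62, 5.81 and 6.29 CPM in the sedentary libraries. *Dlx1* measured 1.63, 3.96, 1.42 and 2.68 CPM in the ELE libraries and 4.79, 4.73, 36.3 and 29.7 CPM in the sedentary libraries and was lower without the pair (log2 fold change -0.98) but did not pass within the NT6 mice (-0.78).

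Many vascular markers had the same profile. Of 17 endothelial markers tested, 9 were lower (median -1.46), and of 16 mural and fibroblast markers, 6 were lower (median -1.07). *Cldn5*, a tight junction protein of the blood-brain barrier, measured 0.573, 0.388, 0.0182 and 0.380 CPM in the ELE libraries and 0.380, 0.611, 5.38 and 5.39 CPM in the sedentary libraries. With the pair left out none of 17 passed (median -0.32), and of the mural and fibroblast markers 1 of 16 was higher and 1 lower (median -0.30). Summed, the endothelial list did not follow, at 421 to 532 CPM in the ELE and 461 to 515 CPM in the sedentary libraries, while the mural and fibroblast list was at 52.2 to 107 CPM outside the NT7.2 pair and at 213 and 231 CPM in it. The pericyte marker *Anpep*, too low to test with all 8 libraries, was at 0 in all 4 ELE libraries and in NT6.305. It was tested in the TG7.4 mice against the NT7.2 mice, through its NT7.2 counts alone, and was lower. Of 20 oligodendrocyte markers, 7 were lower (median -0.34), and 2 of 20 were lower (median -0.16) without the pair. *Cspg4*, a marker of precursors, measured 7.5, 7.9, 7.58 and 9.38 CPM in the ELE libraries and 13, 11.4, 14.8 and 14.9 CPM in the sedentary libraries. It separated the groups and passed without the pair and within the NT6 mice. Astrocyte markers did not move as a list, with 1 of 20 higher and a median of -0.04. The 1 was the filament gene *Gfap*, with 2456, 3229, 1122 and 1725 CPM in the ELE libraries and 1183, 1398, 1613 and 690 CPM in the sedentary libraries and overlapping groups. Of 20 markers of progenitors and immature neurons, 1 was lower (median -0.11). Leaving out the pair, none of 20 passed (median -0.18) among the astrocyte markers, and 1 of 20 was lower (median 0.14) among those of progenitors and immature neurons.

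Nuclear-retained long noncoding RNAs, which are not translated, were lower in 9 of 12, with a median of -1.81. *Meg3* measured 55.5, 44.9, 41.6 and 110 CPM in the ELE libraries and 110, 52.6, 931 and 873 CPM in the sedentary libraries and *Rian* 65.7, 69.9, 51 and 64.3 CPM in the ELE libraries and 69.4, 64.9, 442 and 466 CPM in the sedentary libraries. High values were limited to the NT7.2 pair. Without it none of the 12 passed, with a median of -0.17. The mitochondrial share and the sums of the microglial, interneuron, mural and nuclear RNA lists were thus each highest in the NT7.2 pair, while the interneuron sum was also high in NT6.304 and the endothelial sum was within the range of the other libraries. What part they had in the other results with all 8 libraries was not tested.

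**Figure D3:**
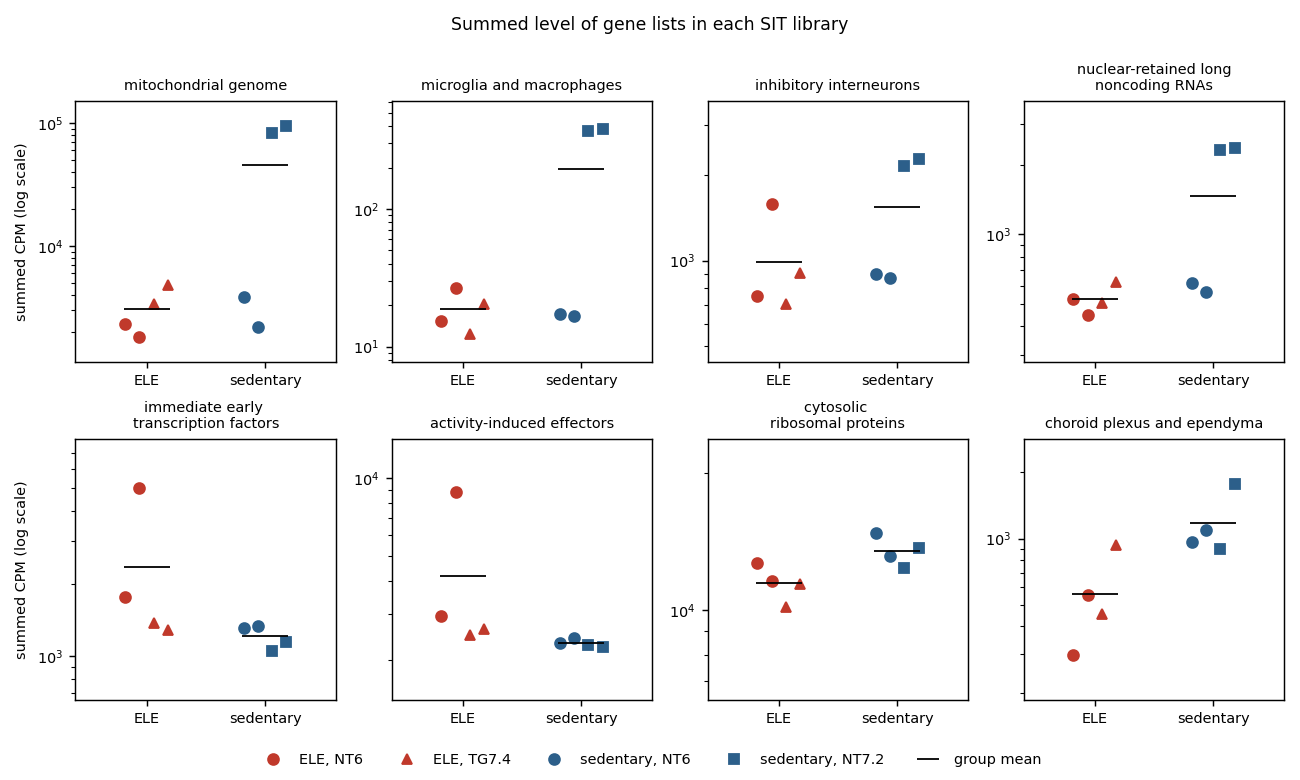
Summed CPM (y axes, log scale) of 8 gene lists in each library, with ELE and sedentary libraries on the x axes, a symbol for each mouse number series and a bar at each group mean. The NT7.2 squares stand far above all other libraries for the mitochondrial genome (83477 and 94185 CPM), microglia and nuclear-retained RNAs, NT6.304 stands above the rest for both activity lists, and the ribosomal protein sums show no such gap.

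Some ribosomal protein genes were lower in ELE with and without the NT7.2 pair, while most did not pass in either fit. Of 81 cytosolic ribosomal protein genes, 15 were lower, 1 was higher and 65 did not pass, with a median of -0.25, and 9 of 81 had a fold change above 0. The summed level was 12683, 11582, 10190 and 11432 CPM in the ELE libraries and 14805, 13136, 12359 and 13703 CPM in the sedentary libraries, or 11472 ± 1020 against 13501 ± 1029 CPM (SD, n = 4), with 1 ELE library within the sedentary range. *Rpl13a*, a large subunit protein, measured 78.4, 73.2, 61.3 and 74.3 CPM in the ELE libraries and 103, 91.9, 91.9 and 106 CPM in the sedentary libraries. *Rplp1*, of the ribosomal stalk, measured 233, 173, 146 and 194 CPM in the ELE libraries and 279, 237, 279 and 311 CPM in the sedentary libraries. For both the groups did not overlap. Their log2 fold changes were -0.45 ± 0.12 (SE) and -0.57 ± 0.15 (SE). Leaving out the NT7.2 pair, 25 of 81 were lower and none higher (median -0.32). Within the NT6 mice, 2 were lower (median -0.24), a share under that of all genes there. Ribosomal protein genes have many processed copies in the genome, so their single values are uncertain. Initiation and elongation factors and the proteasome, which degrades proteins, were counted beside them, and the lists were not tested against each other. Of 12 subunits of initiation factor 3 none passed (median -0.04). Of 36 other initiation and elongation factors 1 was higher and 2 lower (median 0.10), the lower ones being the poly(A) binding protein *Pabpc1* and *Eef1g*. None of 38 proteasome subunits passed (median 0.11). When the NT7.2 pair was left out, none of 12 passed (median -0.07) for initiation factor 3, 1 of 36 was lower (median 0.01) for the other factors and none of 38 passed (median 0.01) for the proteasome.

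Several choroid plexus markers were lower in ELE in each set of libraries. Of 20 choroid plexus and ependymal markers, 11 were lower and none higher, with a median of -0.96. The summed level was 297, 556, 455 and 931 CPM in the ELE libraries and 961, 1098, 901 and 1763 CPM in the sedentary libraries. TG7.4.2 lay within the sedentary range and the other ELE libraries below it. *Enpp2*, which makes lysophosphatidic acid and is also a marker of oligodendrocytes, measured 124, 195, 171 and 289 CPM in the ELE libraries and 294, 363, 291 and 569 CPM in the sedentary libraries. *Sostdc1*, a BMP antagonist of choroid epithelium, measured 4.38, 3.63, 3.93 and 7.1 CPM in the ELE libraries and 7.26, 10.7, 8.47 and 16.1 CPM in the sedentary libraries, and the potassium channel subunit *Kcne2* 0.708, 2.12, 1.25 and 1.8 CPM in the ELE libraries and 4.24, 2.88, 3.66 and 6.33 CPM in the sedentary libraries. These 3 separated the groups. *Ttr*, the thyroxine carrier of choroid plexus, named after its values were seen, measured 107, 252, 199 and 527 CPM in the ELE libraries and 524, 614, 477 and 963 CPM in the sedentary libraries and overlapped by TG7.4.2. With the NT7.2 pair left out, 4 of 20 were lower (median -0.73), and within the NT6 mice 7 were (median -0.99). In the TG7.4 mice against the NT7.2 mice, 7 were lower and 2 higher. *Foxj1*, a factor of ciliated ependyma, measured 13, 13.7, 14.2 and 9.89 CPM in the ELE libraries and 12.1, 9.94, 7.55 and 12 CPM in the sedentary libraries and did not pass. The amount of choroid plexus taken with a hippocampus was not measured, and over the 12 libraries of the separate isolation the summed level of the list ran from 118 to 1976 CPM.

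Globin genes followed. Of 6 red cell genes tested, 5 were lower, with a median of -4.21. The summed level of the list did not follow, at 409, 556, 391 and 393 CPM in the ELE libraries and 436, 446, 518 and 897 CPM in the sedentary libraries, so that NT6.304 lay above 3 of the 4 sedentary libraries. *Hba-a1* measured 1.35, 4.86, 4.51 and 3.21 CPM in the ELE libraries and 11.7, 10.8, 62.7 and 166 CPM in the sedentary libraries, and *Hbb-bs* 0.792, 2.62, 2.47 and 1.92 CPM in the ELE libraries and 5.98, 4.5, 55.3 and 180 CPM in the sedentary libraries. For both, the sedentary NT6 libraries lay above all ELE libraries and the NT7.2 pair above those. Without the pair 4 were lower (median -1.42), and so were 4 within the NT6 mice (median -1.55). *Hba-a1* and *Hba-a2* are near-identical copies, so the split of reads between them is uncertain.

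Lists of neuronal function had medians closer to 0, but most held a larger share of lower genes than the 5.45% of all genes with all 8 libraries. The share was 26.2% for presynaptic release, 18.9% for potassium and HCN channels, 17.2% for ionotropic glutamate receptors and 25.0% for neuropeptides. Leaving out the pair, these 4 shares were 4.76%, 0, 0 and 0, against 1.55% of all genes. Of 42 genes of presynaptic release, 11 were lower and none higher (median -0.09), and 2 of 42 were lower (median -0.04) without the NT7.2 pair. *Rab3b*, a GTPase of synaptic vesicles, measured 7.7, 7.65, 8.82 and 12.2 CPM in the ELE libraries and 23.3, 13.8, 46.3 and 45.6 CPM in the sedentary libraries. *Rims3*, of the active zone, measured 26.7, 35.4, 15.2 and 18.3 CPM in the ELE libraries and 46.3, 42.5, 73 and 72.6 CPM in the sedentary libraries. *Syt2*, a calcium sensor of fast-releasing inhibitory terminals, measured 5.29, 6.23, 3.56 and 2.6 CPM in the ELE libraries and 5.51, 5.72, 34.3 and 30.6 CPM in the sedentary libraries. *Rab3b* and *Rims3* separated the groups and remained lower without the pair and within the NT6 mice, while *Syt2* was high in the pair alone. Of 37 potassium and HCN channels, 7 were lower (median -0.17), and 1 of 37 was higher (median 0.05) without the pair. Of 27 sodium and calcium channels, 1 was higher and 2 lower (median -0.17). For these, 1 of 27 was higher (median 0.17) without the pair, so that the sign of the median turned.

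Of 29 ionotropic glutamate receptor genes, 5 were lower (median -0.11), and without the pair 2 of 29 were higher (median 0.04). Of 7 metabotropic receptors none passed (median -0.07), while 1 of 7 was higher (median 0.14) without the pair. Of 13 GABA-A receptor subunits 2 were lower (median -0.23), and without the pair 1 of 14 was lower (median 0.13). *Gabra3* measured 26, 23.7, 20.4 and 31.2 CPM in the ELE libraries and 38.5, 33.8, 56.3 and 71.9 CPM in the sedentary libraries, without overlap, and was lower in both smaller fits. Of 32 postsynaptic scaffold genes 1 was higher and 2 lower (median -0.03), and without the pair 1 of 32 was lower (median 0.04). The higher one, *Homer1*, whose short form is induced by activity, measured 278, 522, 221 and 190 CPM in the ELE libraries and 204, 199, 175 and 187 CPM in the sedentary libraries. Of 16 calcium pumps and exchangers 2 were lower (median -0.17), among them *Atp2b4*, a calcium pump of the plasma membrane. Without the pair 1 of 16 was lower (median 0.15). Of 24 neuropeptide genes 3 were higher and 6 lower (median -0.08), and none of 24 passed (median 0.18) without the pair. The medians of ionotropic and metabotropic glutamate receptors, GABA-A subunits, scaffold genes, calcium pumps and neuropeptides thus all turned from below to above 0 when the NT7.2 pair was left out.

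Of 48 genes of axon growth and guidance, 3 were higher and 5 lower (median -0.09), and without the NT7.2 pair 1 of 48 was higher and 4 lower (median 0.11). *Epha7*, an ephrin receptor, measured 194, 241, 177 and 152 CPM in the ELE libraries and 104, 135, 138 and 140 CPM in the sedentary libraries. *Efna5*, an ephrin ligand, measured 3.13, 2.66, 2.58 and 4.46 CPM in the ELE libraries and 6.3, 5.27, 9.02 and 9.91 CPM in the sedentary libraries. *Stmn1*, which destabilises microtubules, measured 220, 209, 175 and 186 CPM in the ELE libraries and 275, 269, 247 and 263 CPM in the sedentary libraries. *Epha7* was higher in every ELE library, while *Efna5* and *Stmn1* were lower, and all 3 passed without the NT7.2 pair in the same direction. Within the NT6 mice *Stmn1* did not pass (-0.35).

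Among pathways tied to exercise and chromatin, few genes passed. Of 32 exercise and PGC-1 factors 3 were lower (median -0.08), and without the NT7.2 pair 1 of 32 was higher (median 0.05). Of 39 genes of cyclic AMP and CREB signalling 2 were higher and 2 lower (median -0.01), and none of 39 passed (median 0.11) without the pair. Of 38 histone acetyltransferases and deacetylases 2 were lower (median 0.02), and of 49 histone lysine methyltransferases and demethylases 3 were (median -0.01). In the fit without the pair, 1 of 38 was higher and 1 lower (median 0.02) in the first of these lists and 2 of 49 were higher (median 0.12) in the second. *Kmt2a*, a methyltransferase of H3K4, measured 30.8, 29, 36.1 and 31 CPM in the ELE libraries and 34.2, 32.6, 101 and 70.7 CPM in the sedentary libraries, high in the pair alone. Of 25 replication-dependent histones 2 were higher (median 0.48), while 4 of 36 were higher (median 0.06) without the pair and the median was -0.11 within the NT6 mice. Of 29 nucleoporins 2 were higher (median 0.14), of 25 genes of cholesterol synthesis 1 was higher (median 0.02), and of 23 clock genes 2 were higher and 1 lower (median -0.06). Without the pair, none of 29 passed (median 0.19) for the nucleoporins, 1 of 25 was higher (median 0.06) for cholesterol synthesis and none of 23 passed (median -0.04) for the clock. Of 21 interferon-induced genes, 1 was higher (median 0.09), namely *Oasl2* at 1.25, 0.719, 6.11 and 3.74 CPM in the ELE libraries and 0.646, 0, 0.962 and 0.358 CPM in the sedentary libraries, highest in the TG7.4 mice. Leaving out the pair, 2 of 23 were higher (median 0.49), with 19 of 23 log2 fold changes above 0.

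Markers of hippocampal fields were then compared. Of 16 dentate granule cell markers, 3 were higher and none lower (median 0.28). *Prox1*, the homeobox factor of granule cell identity, measured 180, 244, 233 and 155 CPM in the ELE libraries and 121, 155, 173 and 150 CPM in the sedentary libraries, and *Npnt* 30.8, 88.7, 40.8 and 38 CPM in the ELE libraries and 28.1, 20.8, 25.6 and 35.7 CPM in the sedentary libraries. Both overlapped, both were highest in NT6.304, and both were higher without the NT7.2 pair and within the NT6 mice. Neither passed without NT6.304 (log2 fold changes 0.34 and 0.41) or in the TG7.4 mice against the NT7.2 mice (0.27 and 0.37). Both passed in the 5 libraries that the study compared (0.46 and 0.58), which lack NT6.304 too. The median of the list turned to -0.21 within the NT6 mice, where 4 of 16 were higher and none lower, and without the pair 3 of 16 were higher (median 0.15). Without NT6.304, 2 of 16 were higher and none lower (median 0.36). In the TG7.4 mice against the NT7.2 mice, 6 of 16 were higher and none lower (median 0.49). The same counts held in the libraries the study compared (median 0.37). Of 12 CA1 markers none passed (median -0.11), and of 16 CA2 and CA3 markers 2 were higher and 2 lower (median 0.22). Of 18 markers of excitatory forebrain neurons 1 was higher and 2 lower (median 0.09). Of 19 markers of striatal and other forebrain neurons 1 was higher and 5 lower (median -0.44). With the pair left out, none of 12 passed (median 0.01) for CA1, 2 of 16 were higher and 1 lower (median 0.16) for CA2 and CA3, 1 of 18 was higher and 1 lower (median 0.03) for excitatory neurons and 2 of 19 were lower (median 0.15) for striatal and other forebrain neurons.

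**Figure D4:**
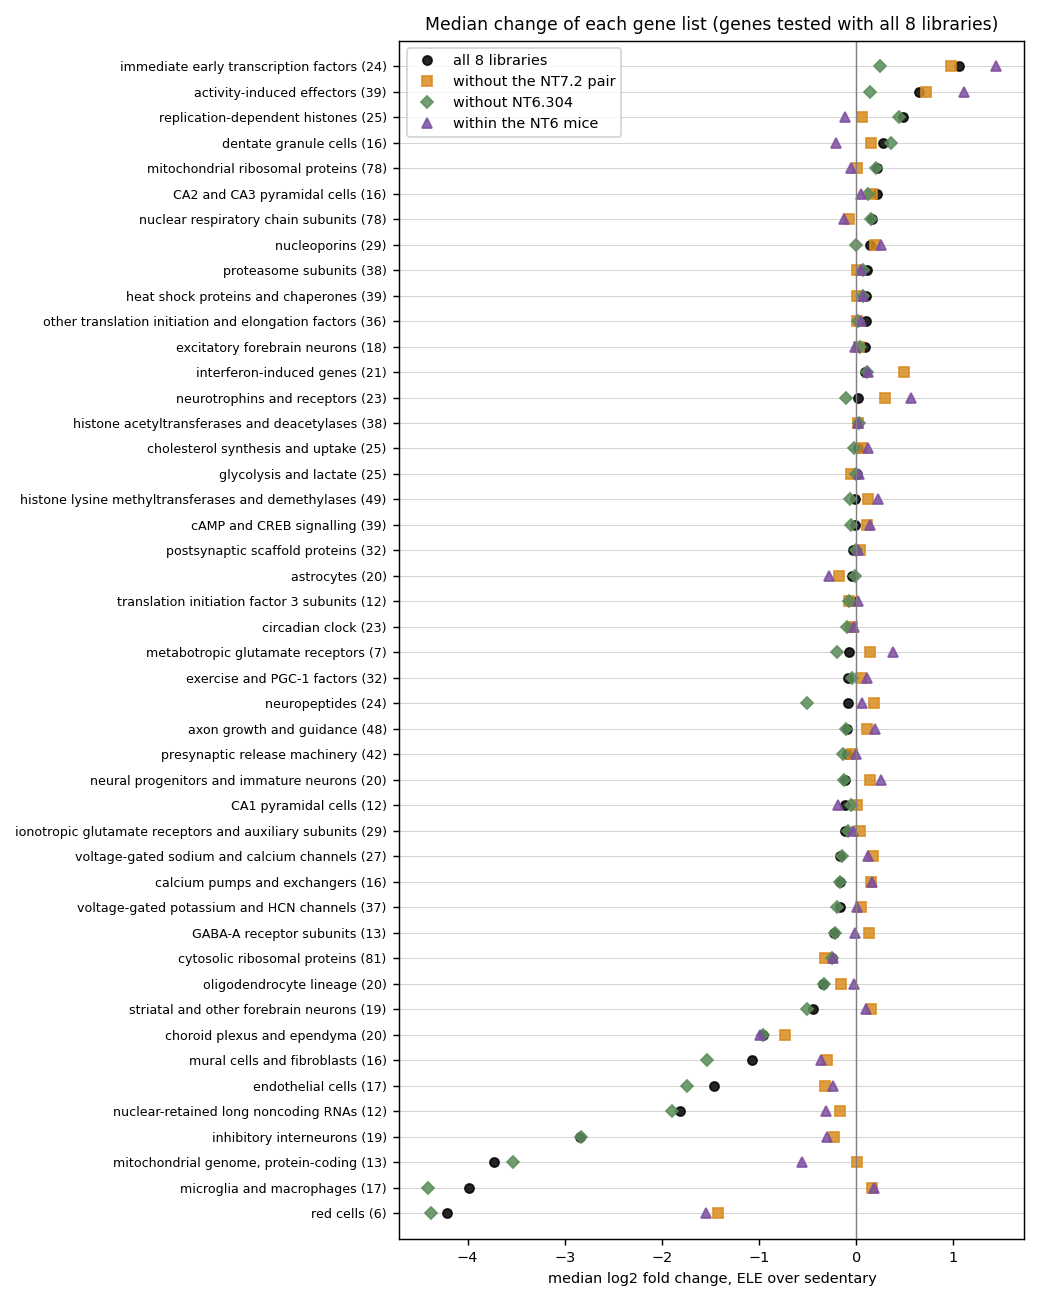
Median log2 fold change of ELE over sedentary (x axis) for 46 gene lists (y axis, with the number of genes tested with all 8 libraries), in 4 sets of libraries. The lists at the bottom lie far below 0 with all 8 libraries and near 0 without the NT7.2 pair, except red cells and choroid plexus, and the activity lists at the top lie near 0.25 and 0.14 without NT6.304.

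The genes with the smallest p among protein-coding genes whose groups did not overlap were examined next. All 19 named here, 10 higher and 9 lower, had an adjusted p of 0.403 in edgeR's quasi-likelihood test in the fit of all 8 libraries. Groups that do not overlap fix the exact permutation p at 0.0286, the smallest possible, so that this value adds nothing to the choice. The 10 higher in ELE were *Spsb1*, *Errfi1*, *Lurap1l*, *Gpr135*, *Nr4a1*, *Nbl1*, *Ccdc3*, *Neurod2*, *Nipa2* and *Syndig1*. *Spsb1* (ENSMUSG00000039911.13, chromosome 4, 149896283 to 149955043, minus strand), which encodes a SOCS box adaptor of ubiquitin ligases, measured 37, 48.2, 41.8 and 35.6 CPM in the ELE libraries and 21.5, 26.9, 26 and 20.2 CPM in the sedentary libraries. *Neurod2*, a factor of excitatory neuron differentiation, measured 592, 820, 686 and 628 CPM in the ELE libraries and 477, 502, 496 and 354 CPM in the sedentary libraries. *Syndig1*, a partner of AMPA receptors at synapses, measured 70.6, 87.9, 58.6 and 61.1 CPM in the ELE libraries and 43.9, 54.3, 39 and 32 CPM in the sedentary libraries. The log2 fold changes were 0.78 ± 0.15 (SE), 0.58 ± 0.15 (SE) and 0.72 ± 0.18 (SE), modest beside those of the immediate early genes but shared by all 4 ELE mice. *Nbl1*, a secreted BMP antagonist, measured 130, 171, 128 and 155 CPM in the ELE libraries and 112, 109, 89.1 and 80.3 CPM in the sedentary libraries. The magnesium transporter *Nipa2* measured 41.7, 45.5, 42.2 and 43.8 CPM in the ELE libraries and 33.5, 34.9, 28.7 and 26.6 CPM in the sedentary libraries and the orphan receptor *Gpr135* 38.5, 42.4, 42.9 and 43.2 CPM in the ELE libraries and 30.6, 33, 29 and 27.5 CPM in the sedentary libraries. *Spsb1*, *Errfi1*, *Nr4a1*, *Nbl1*, *Ccdc3*, *Neurod2* and *Syndig1* passed the threshold in the same direction without the NT7.2 pair and within the NT6 mice. *Lurap1l* (0.33), *Gpr135* (0.33) and *Nipa2* (0.34) did not pass within the NT6 mice, and *Nipa2* (0.34) did not pass without the pair. In the 5 libraries that the study compared, *Nbl1* (0.31), *Ccdc3* (0.34), *Neurod2* (0.37), *Syndig1* (0.37) and *Nipa2* (0.31) fell short of the threshold, while the other 5 higher genes passed.

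The lower genes were *Dlx2*, *Cckbr*, *Plppr3*, *Atp2b4*, *Zcchc12*, *Irs4*, *Rab3b*, *Ticrr* and *Hba-a1*. *Cckbr* (ENSMUSG00000030898.15, chromosome 7, 105425731 to 105470898, plus strand), the brain receptor of cholecystokinin, measured 6.25, 5.09, 6.27 and 5.01 CPM in the ELE libraries and 11.9, 10, 13.7 and 12.3 CPM in the sedentary libraries. Its log2 fold change was -1.08 ± 0.18 (SE), -0.96 without the NT7.2 pair and -0.96 within the NT6 mice. *Atp2b4* measured 70.5, 46.1, 61.2 and 63.4 CPM in the ELE libraries and 116, 97.9, 161 and 120 CPM in the sedentary libraries. In both genes the sedentary NT6 libraries lay above every ELE library and below the NT7.2 pair. *Plppr3*, of a family of membrane lipid phosphatase relatives, measured 17.8, 14, 14.3 and 19.9 CPM in the ELE libraries and 27.8, 29.4, 35 and 37.5 CPM in the sedentary libraries, and *Zcchc12* 11.6, 5.67, 11 and 9.63 CPM in the ELE libraries and 21.2, 17.2, 30.6 and 30.3 CPM in the sedentary libraries. *Irs4*, an insulin receptor substrate, had no count in any ELE library and 0.855, 0.267, 0.698 and 0.520 CPM in the sedentary ones, at least 10.5-fold lower in ELE against a floor of 3 counts per library. *Ticrr*, a regulator of replication origins, also had no count in ELE and 0.456, 0.305, 0.264 and 0.520 CPM in sedentary libraries, at least 6.94-fold lower. Both are scarce in every library and passed the filter on low counts through the sedentary libraries alone, so a gene at 0 in ELE had to differ to be tested, and their place among the smallest p is only a description.

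**Figure D5:**
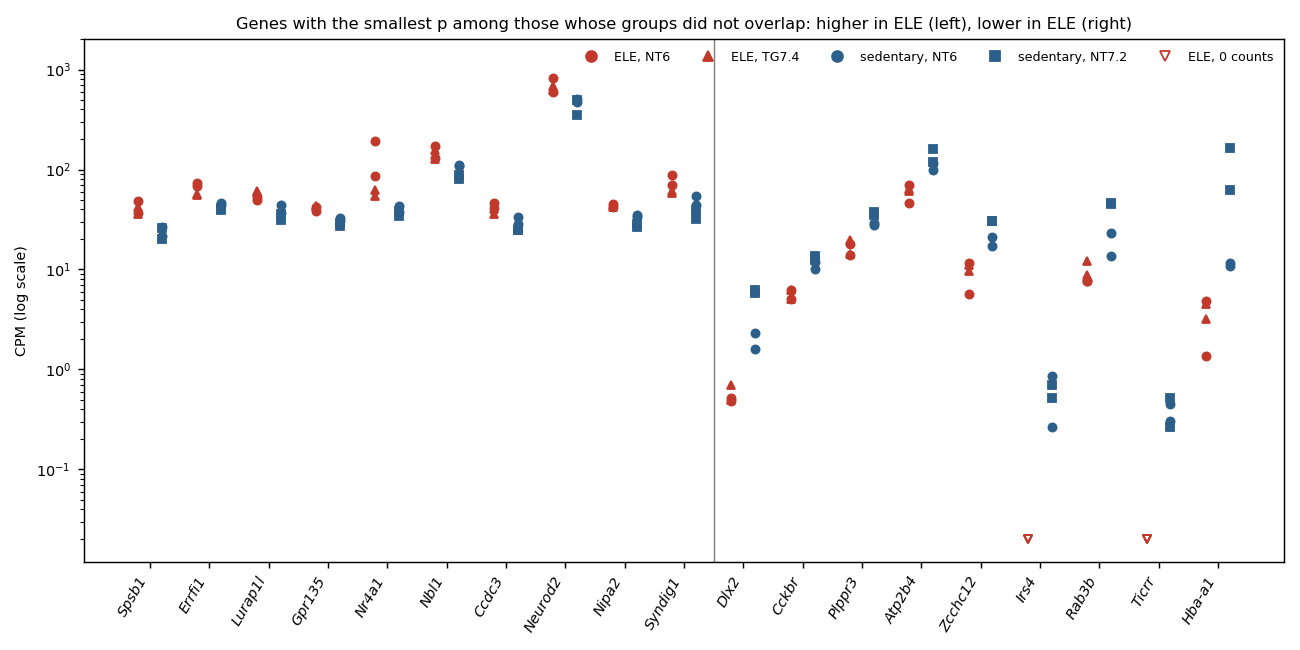
CPM (y axis, log scale) in each library of 10 genes higher and 9 lower in ELE with the smallest p among protein-coding genes whose groups did not overlap (x axis). Red symbols are ELE and blue sedentary libraries, and open triangles at the foot mark ELE libraries with 0 counts, for *Irs4* and *Ticrr*. The step between the groups is small in *Gpr135*, and in *Hba-a1* the NT7.2 squares lie far above the sedentary NT6 circles.

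Among genes of any type that passed in the same direction with all 8 libraries, without the NT7.2 pair and within the NT6 mice, the 5 higher with the smallest p were *Spsb1*, *Errfi1*, *Gm34583*, *Nr4a1* and *Nbl1*, and the lower ones included *Dlx2*, *Cckbr*, *Plppr3* and *Atp2b4*. *Gm34583*, annotated as a transcribed processed pseudogene, measured 20.6, 35.2, 17.3 and 14.1 CPM in the ELE libraries and 10.1, 11.5, 8.08 and 7.26 CPM in the sedentary libraries. As a copy of another gene it may share reads with it, which was not examined. Its log2 fold change was 1.24 ± 0.28 (SE) with all 8 libraries and 1.04 in the TG7.4 mice against the NT7.2 mice.

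Genes that the study's text singles out for the SIT comparison were chosen on 5 of these libraries, so they are no independent evidence of a direction. Of 16 tested from a list of genes it names as raised, 4 were higher, 3 lower and 9 did not pass with all 8 libraries. Genes it names beside a histone mark, such as *Prox1*, described above, were not on this list. The higher ones were *Nr4a1*, *Bdnf*, *Dusp5* and *Artn*, a ligand of the GDNF family, which measured 1.23, 0.621, 0.763 and 1.97 CPM in the ELE libraries and 0.684, 0.191, 0.453 and 0.538 CPM in the sedentary libraries. The lower ones were *Efna5*, *Gap43* and *Camk2n2*. *Gap43*, a growth cone protein, measured 168, 139, 153 and 178 CPM in the ELE libraries and 247, 209, 174 and 216 CPM in the sedentary libraries. *Camk2n2*, an inhibitor of CaMKII, measured 141, 132, 148 and 176 CPM in the ELE libraries and 236, 193, 174 and 192 CPM in the sedentary libraries. In both, TG7.4.2 alone among ELE libraries reached the sedentary range. *Kcna1*, a potassium channel, measured 59.6, 69.8, 74.2 and 51.1 CPM in the ELE libraries and 38.5, 52.5, 68.3 and 42.6 CPM in the sedentary libraries, with a log2 fold change of 0.34 ± 0.19 (SE) that did not pass with all 8 and 0.48, past the threshold, without the NT7.2 pair. *Kdm7a*, a histone demethylase, measured 97.7, 123, 74.5 and 57.2 CPM in the ELE libraries and 56.7, 55.6, 91.4 and 85.4 CPM in the sedentary libraries, so that the NT7.2 pair was as high as ELE, and its log2 fold change went from 0.28 ± 0.25 (SE) to 0.64 without the pair. *Slc24a4* (0.74), *Stxbp5l* (0.15), *Gabra2* (-0.44), *Sox21* (-0.39), *Atm* (-0.21), *Blm* (0.26) and *Mnd1* (0.82) did not pass, with log2 fold changes in parentheses. Without the NT7.2 pair, 5 of the 16 were higher and 4 lower, the fourth being *Sox21* (-0.71). In the 5 libraries that the study compared, 6 of the 16 were higher and 4 lower (median 0.44), the lower ones being *Efna5* (-0.77), *Gap43* (-0.46), *Camk2n2* (-0.47) and *Sox21* (-0.61). *Msh4* had too few counts to test. Another 4 entries, H3c4, H2bc3, H2bc5 and H2bc9, found no gene under these symbols and are outside the 16. RefSeq gives older names for 3 of them, *Hist1h3d*, *Hist1h2bb* and *Hist1h2bh*, which are scarce replication-dependent histone genes with similar copies, so that their values are uncertain. *Hist1h3d* measured 0.775, 0.641, 0.818 and 1.63 CPM in the ELE libraries and 0.247, 0.458, 0.491 and 0.125 CPM in the sedentary libraries and was higher with all 8 (1.54 ± 0.61 (SE)) but did not pass without the pair (1.45). *Hist1h2bb*, with too few counts to test with all 8, measured 0.202, 0.252, 0.109 and 0.266 CPM in the ELE libraries and 0, 0, 0.0189 and 0 CPM in the sedentary libraries. *Hist1h2bh* measured 0.606, 0.35, 0.436 and 0.323 CPM in the ELE libraries and 0.0380, 0.0191, 0.264 and 0.340 CPM in the sedentary libraries and did not pass with all 8 (1.36 ± 0.90 (SE)), but did without the pair (3.80). All 4 ELE libraries lay above the sedentary ones in the first 2 of these, and not in *Hist1h2bh*.

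Of 5 collagen genes so named, *Col1a1* and *Col1a2* were lower with all 8 libraries and none was without the NT7.2 pair, while 4 of the 5 were without NT6.304. *Col1a2* measured 1.35, 0.855, 0.236 and 0.646 CPM in the ELE libraries and 1.6, 0.916, 14.9 and 19.8 CPM in the sedentary libraries and *Col1a1* 0.842, 1.73, 0.182 and 0.608 CPM in the ELE libraries and 1.54, 1.35, 19 and 14.4 CPM in the sedentary libraries. *Col1a1* and *Col1a2* are themselves members of the mural and fibroblast list, so the level of that list in the pair is no separate evidence on them. *Col2a1* (-1.69), *Col3a1* (-1.09) and *Col5a1* (-1.05) did not pass.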

How the data were processed

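Translating mRNA was sequenced from Emx1-NuTRAP hippocampi. The authors aligned reads with STAR 2.7.3a, removed duplicates with Picard 1.87 and deposited raw counts of read pairs per gene, strand used, 1 column per mouse. Columns carry mouse numbers, and their groups were taken from the study's labels and sample table. A wild-type table (24 columns of per-sample values) was not used here. Removing duplicates lowers counts of abundant genes most.

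Counts were fitted with edgeR 4.0.16 in R 4.3.3 (TMM scaling, filterByExpr, quasi-likelihood test with Benjamini-Hochberg adjustment over all genes tested), 4 ELE against 4 sedentary libraries. The threshold was an unadjusted p under 0.05 and 1.3-fold. CPM used TMM-scaled library sizes. Summed levels cover all annotated members of a list, tested or not. Two-sided exact permutation tests used log2(CPM + 0.5). DESeq2 1.42.0, other scalings, filters and sets of libraries were alternatives. In simulated data with 200 genes changed by 1 on the log2 scale at this group size and an assumed dispersion of 0.02, edgeR recovered 100% with 6.1% false calls. DESeq2 recovered 100% with 13% false calls. No simulated library stood apart as NT6.304 and the NT7.2 pair did, so these rates do not carry over to the real libraries. Totals of at least 50410258 counts make counting error small beside the spread between mice for abundant genes. It is not small for scarce ones, where a value can rest on 1 count. No pair of libraries of a group agreed within sampling noise (chi-square per gene 22.5 to 463).

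The members, the 48 lists and the motifs were chosen with earlier results of these data known. Named genes were the 10 higher and 10 lower protein-coding genes with the smallest p and no overlap, up to 4 past the threshold per list (or 2 with the highest CPM), genes the study names, mitochondrial genes and the 5 higher and 5 lower that passed in 3 fits. Of 55335 genes, 55154 matched the GRCm38 annotation. Promoters came from RefSeq (GRCm38.p6). The motif search covered the whole window. Of the list entries, 8 had no match by symbol and were left out. A few genes that this rule names are not reported here.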

Additional observations from a re-analysis of the deposited data

Results flagged for a closer look

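Among 296 groups of 4 libraries, taken over the lists, the mitochondrial share and the named genes, 32 had a highest or lowest library whose gap to the nearest other, over the range of the group, was above the 95% critical value of Dixon's test. Chance flags about 1 in 20 groups, and genes of 1 list are not independent of each other.

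Most of these were single high values of NT6.304 among the ELE libraries. The summed level there was 4990 CPM for immediate early transcription factors, 8781 CPM for activity-induced effectors, 5627 CPM for neuropeptides, 1146 CPM for striatal and other forebrain neurons, which include *Penk*, and 1181 CPM for the genes the study names as raised. The red cell list was at 556 CPM there. Among single genes, the level in NT6.304 was 613 CPM for *Fos*, 668 CPM for *Junb*, 21.4 CPM for *Atf3*, 48.9 CPM for *Egr2* and 1120 CPM for *Arc*. It was 237 CPM for *Bdnf*, 77.7 CPM for *Dusp5*, 108 CPM for *Arl4d*, 484 CPM for *Plk2*, 604 CPM for *Scg2* and 681 CPM for *Penk*. It was 54.2 CPM for *Bag3*, 50.5 CPM for *Slc24a4*, 3.63 CPM for *Col3a1* and 0.0194 CPM, from 1 count, for *Mrc1*, which the other ELE libraries lacked.

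Other libraries stood apart in fewer genes. NT6.303 was lowest among ELE libraries for mitochondrial ribosomal proteins, at 2691 CPM, and for *Gpr135*, at 38.5 CPM. TG7.4.2 was highest among them for *Dlx2*, at 0.703 CPM. Among sedentary libraries, NT7.2.3 was lowest for the circadian list (1525 CPM) and highest for *Col5a1* (2.53 CPM) and *Pf4* (0.208 CPM). NT7.2.4 was highest for *Gabra2* (313 CPM) and lowest for *Atf3* (0.448 CPM). NT6.305 was lowest for *Epha7* (104 CPM), NT6.306 alone had a count of *Msh4* (0.0191 CPM, from 1 count), and NT7.2.3 alone of *Hist1h2bb* (0.0189 CPM, from 1 count).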

How the results depend on the processing

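The counts of changed genes depended most on which libraries entered. Against 419 higher and 956 lower genes, leaving out the NT7.2 pair gave 236 and 287, the NT6 mice alone 650 and 546, and the TG7.4 against the NT7.2 mice 2191 and 2772. The libraries that the study compared gave 286 higher and 395 lower genes. No filter on low counts gave 663 and 1525, and DESeq2 gave 557 and 1468, with more genes tested in both. Leaving out 1 library gave 196 to 716 higher and 545 to 1292 lower genes. Higher genes numbered 716 without NT6.305, 689 without NT6.306 and 196 without NT7.2.4, and lower genes 609 without NT7.2.3 and 545 without NT7.2.4. The share of calls that were higher was 30.5% with all 8 libraries, 45.1% without the NT7.2 pair and 54.3% within the NT6 mice.

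Of 94 genes named and tested, 94 kept their direction and their side of the threshold with median-of-ratios size factors, 54 without the NT7.2 pair, 56 within the NT6 mice, 51 in the libraries the study compared and 76 without NT6.304. Among genes past the threshold with all 8 libraries, the sign of the log2 fold change turned for *mt-Co1* without the NT7.2 pair (0.06), for *mt-Co1* (0.23) and *mt-Cytb* (0.18) in the libraries the study compared, for *Syt2* (0.03) and *Rian* (0.00) within the NT6 mice, and for *Penk* (-0.26) in the TG7.4 against the NT7.2 mice. Among genes that did not pass with all 8, it turned without the NT7.2 pair for *Col3a1* (0.70), *Atm* (0.32) and *Atp5a1* (-0.07), and within the NT6 mice for *Col3a1* (1.68), *Atm* (0.33), *Atp5a1* (-0.03), *Nr4a3* (-0.03) and *Nr4a2* (-0.00). It did so in the libraries the study compared for *Atm* (0.29), *Gabra2* (0.02), *Atp5a1* (-0.09) and *Atp5b* (-0.05), and in the TG7.4 against the NT7.2 mice for *Kdm7a* (-0.42), *Stxbp5l* (-0.27), *Slc24a4* (-0.19) and *Gapdh* (0.11). *Gapdh*, at -0.00, was at 0.00 without mitochondrial and ribosomal RNA genes, with no filter on low counts and with the mouse number term. Leaving out 1 library turned the sign for *Atm* (-0.37 to 0.11), *Stxbp5l* (-0.02 to 0.44), *Nr4a2* (-0.19 to 0.25), *Nr4a3* (-0.13 to 0.34), *Atp5b* (-0.00 to 0.09) and *Gapdh* (-0.06 to 0.04). Without the NT7.2 pair, the medians of 23 of 48 lists moved by more than the spread between libraries. Within the NT6 mice those of 29 did, in the TG7.4 against the NT7.2 mice those of 24, and in the libraries the study compared those of 22. Where no value above shows a cause, the cause was not tested. With the mouse number series (NT6 against the other mice) as a term, 521 genes were higher and 877 lower, and 8 of the 94 named genes no longer passed. No paired analysis was possible because the columns carry no replicate numbers.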
